A study of Mus musculus with 21 samples.

Results

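The contrast asked whether the effect of the current diet on the ventral hypothalamic transcriptome depended on the diet eaten before. Mice kept on regular chow (RC NoDS) or on high-fat diet (HFD NoDS) were set against mice moved from chow to high-fat diet (RC → HFD) or from high-fat diet to chow (HFD → RC), as (HFD NoDS − HFD → RC) − (RC → HFD − RC NoDS). A positive value is a transcript that was higher in the unswitched than in the switched groups. Genes were kept if they averaged at least 50 reads over the 21 libraries, which left 12768 of 21654 genes. The remaining 8886 genes were not tested.

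The animals were male C57BL/6J mice acquired at 12 to 14 weeks of age, with no genetic modification stated. RC NoDS mice ate chow throughout, RC → HFD mice had eaten chow and then high-fat diet, HFD → RC mice the reverse, and HFD NoDS mice ate high-fat diet throughout. Tissue was taken on day 7 after the switch, at ZT6 (6 h after lights on), after 3 h of forced wakefulness in every group. Each library pooled ventral hypothalamic punches from 2 mice, with 5 libraries for RC NoDS, 6 for RC → HFD, 5 for HFD → RC and 5 for HFD NoDS, and 3 further libraries were not sequenced after quality control. The libraries held 16380781 to 16390598 counted reads, a near-equal depth that the authors set by random re-sampling.

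The ventral hypothalamus holds the arcuate nucleus, whose *agrp* and *npy* neurons drive feeding and whose *pomc* neurons restrain it, and the ventromedial nucleus. Tanycytes line the floor of the third ventricle and carry hormones and nutrients between the cerebrospinal fluid and the arcuate nucleus. The meninges lie directly under this tissue, and a punch also takes in axons, myelin, astrocytes, microglia and blood vessels. In such bulk samples, fewer cells of a type and less RNA per cell cannot be told apart. The peptide transcripts that mark the region were abundant in these punches, with *pomc* at 5012 to 11836 reads, *npy* at 1390 to 5713 and *agrp* at 426 to 1476 over the 21 libraries. The authors had dropped punches in which average *agrp* and *pomc* were not enriched enough over *hcrt*, so high *agrp* and *pomc* were selected for. *Hcrt*, a lateral hypothalamic transcript, held 28 to 1051 reads.

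The interaction passed the threshold for 4 genes. The potassium-chloride cotransporter *slc12a7* and the basement membrane collagen *col18a1* were higher in the unswitched groups, and the phospholipase C-like gene *plcxd2* and the microtubule-binding *tppp* were lower. In edgeR's quasi-likelihood test with Benjamini-Hochberg adjustment, each had an adjusted p of 0.145, under the threshold of 0.15. This was 0.0313% of the genes tested, 0.0157% higher and 0.0157% lower. At an adjusted p under 0.05, edgeR called 0 genes (0%), DESeq2 called 31 and limma-voom 0, beside 1129 genes (8.84%) at an unadjusted p under 0.05 in edgeR, of which 513 (4.02%) were higher and 616 (4.82%) lower. At 0.15, DESeq2 called 116 genes (0.909%), 56 higher and 60 lower, and limma-voom called 15 (0.117%), 7 higher and 8 lower. All 4 edgeR genes were among the calls of both tools. Scaling by library size alone left 2 genes, both higher, and gave an unadjusted split of 671 higher and 473 lower.

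The count of called genes moved with single libraries. It was 0 without RC NoDS 1, 5 or 6, without RC → HFD 7, 8, 11 or 12, without HFD → RC 13, 15 or 17, and without HFD NoDS 21, 23 or 24. It was 22 without RC NoDS 3, 7 without RC → HFD 9, 20 without RC → HFD 10, 44 without HFD → RC 14, 9 without HFD → RC 16, 103 without HFD NoDS 19 and 124 without HFD NoDS 20. Without RC NoDS 2 it was 4, and 3 of the original 4 genes were among them.

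*Slc12a7*, which carries potassium and chloride out of cells, lies on chromosome 13 at 73870542 to 73954191 on the plus strand (NCBIM37, GENCODE annotation). It had 357, 449, 387, 481 and 518 reads in RC NoDS and 404, 535, 446, 483 and 512 in HFD NoDS. In RC → HFD the lowest, median and highest libraries held 289, 355.5 and 405 reads, and the HFD → RC libraries held 260, 376, 255, 320 and 317. Both unswitched groups were high and both switched groups low, and after TMM scaling 8 of 10 unswitched libraries were above all 11 switched ones. The interaction was 0.95 on the log2 scale (SE 0.19, n = 21 libraries, edgeR adjusted p = 0.145), and its adjusted p ranged from 0.0623 to 0.385 when a library was left out.

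*Col18a1* encodes collagen XVIII, a heparan sulfate proteoglycan of basement membranes (chromosome 10, 76514923 to 76629293, minus strand). The RC NoDS libraries held 424, 342, 366, 484 and 478 reads and the HFD NoDS libraries 565, 675, 489, 549 and 444. The RC → HFD libraries had a lowest, median and highest of 267, 305.5 and 366, and the HFD → RC libraries held 341, 448, 244, 376 and 260. HFD NoDS was the high group, RC NoDS lay between, and 6 of 10 unswitched libraries were above every switched library after scaling. The interaction was 1.08 (SE 0.22, edgeR adjusted p = 0.145, 0.0623 to 0.385 with a library left out). The gene overlaps *slc19a1* on the opposite strand, and whether the counting used strand is not given in the sources used here, so reads of overlapping genes cannot be told apart.

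*Plcxd2*, a member of a family with a phospholipase C catalytic domain, had the opposite pattern (chromosome 16, 45959376 to 46010331, minus strand). It had 1429, 2018, 1963, 1521 and 1580 reads in RC NoDS and 1894, 1534, 1912, 1543 and 1785 in HFD NoDS. The RC → HFD libraries had a lowest, median and highest of 1962, 2024.5 and 2421, and the HFD → RC libraries held 2162, 1862, 2449, 2405 and 2050. The switched groups were the high ones, with 9 of 11 switched libraries above all unswitched libraries after scaling. The interaction was −0.66 (SE 0.14, edgeR adjusted p = 0.145, 0.0668 to 0.385 with a library left out), in a gene that overlaps *gm15638* on the other strand.

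*Tppp*, a tubulin polymerization-promoting protein abundant in oligodendrocytes, lies on chromosome 13 at 74146855 to 74173201 (plus strand), the same chromosome as *slc12a7*, and overlaps *gm6263* on the other strand. Its reads were 5733, 6749, 6580, 5039 and 5768 in RC NoDS and 6843, 6839, 5874, 6076 and 6740 in HFD NoDS. The RC → HFD libraries had a lowest, median and highest of 6453, 7196 and 7753, and HFD → RC held 7966, 7336, 8270, 7122 and 6710. RC NoDS was lowest and HFD → RC highest, and 9 of 11 switched libraries were above all unswitched ones after scaling. The interaction was −0.51 (SE 0.11, edgeR adjusted p = 0.145, 0.0549 to 0.385 with a library left out).

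Across all genes, 0 genes (0%) separated the 10 unswitched from the 11 switched libraries without overlap, in either direction. Leaving out a library gave up to 2 such genes. These were *mbtps1* without RC NoDS 2, *trp73* without RC → HFD 9, *ctsl* and *cpa4* without HFD NoDS 19, and *col24a1* without HFD NoDS 20, all named after their values were seen.

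**Figure D1:**
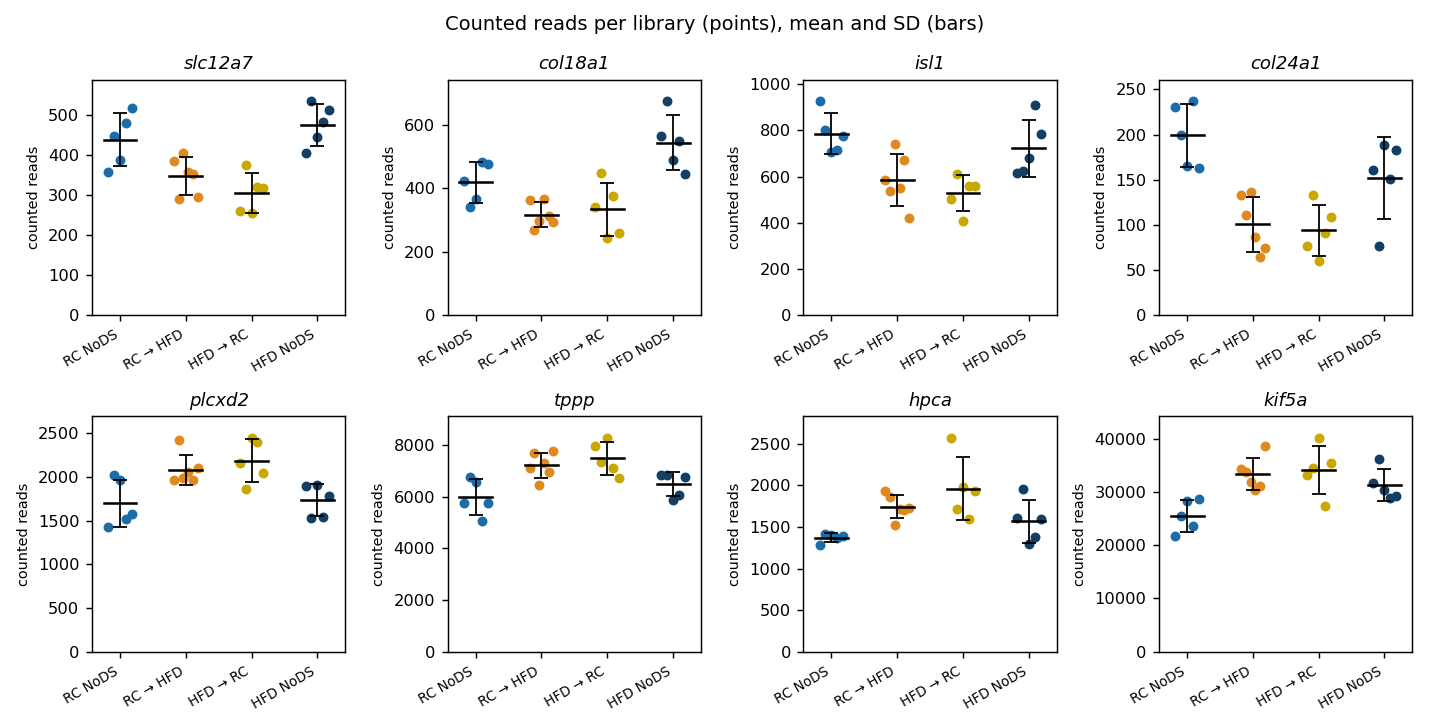
Counted reads per library (points) with the mean and SD (bars) in the 4 diet groups, for 4 genes higher and 4 lower in the unswitched groups. *Slc12a7* lies at 357 to 518 and 404 to 535 reads in the unswitched groups and at 289 to 405 and 255 to 376 in the switched groups.

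Of the 1129 genes with an unadjusted p under 0.05, 492 were lower on high-fat diet after chow and higher on high-fat diet after high-fat diet, and 599 showed the reverse. Another 24 were higher and 14 lower on high-fat diet on both backgrounds. The share with opposite signs was 96.6%, against 52.7% of all genes tested, and choosing genes by a large interaction favours opposite signs by itself, so nothing is read from this share. Beside the 4 genes of the interaction, edgeR at 0.15 called 6 (0.047%) for current diet, 9 (0.0705%) for earlier diet, 5 (0.0392%) for RC → HFD against RC NoDS and 9 (0.0705%) for HFD NoDS against HFD → RC. DESeq2 called 12, 32, 96 and 44 for the same contrasts. For RC → HFD against RC NoDS its own filter on mean counts left 886 genes in the adjustment, without *npy*, *agrp*, *trh* and *rbm3*, and over all genes it called 15, among them all 5 of edgeR. The interaction took a median of 3.18% of the variation of a gene between libraries, current diet 2.74% and earlier diet 2.98%. Any contrast takes some share by chance, which was not computed here, so these shares are not read as effects.

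**Figure D2:**
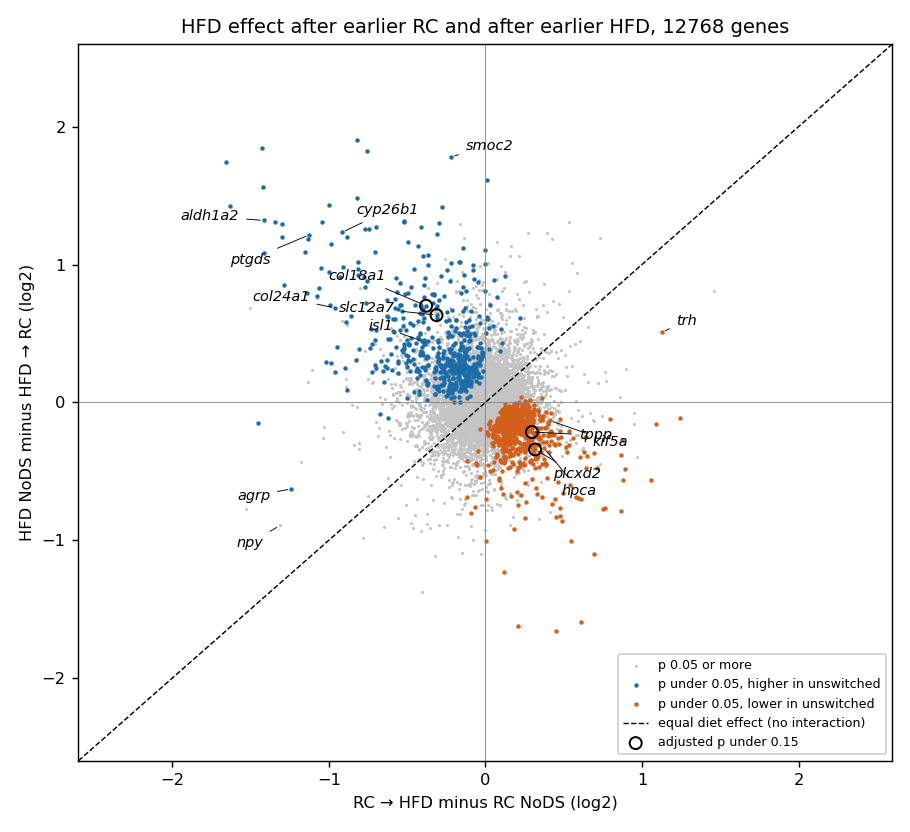
Log2 difference between high-fat diet and chow after earlier chow (horizontal) and after earlier high-fat diet (vertical) for each gene tested, with the dashed diagonal where the interaction is 0. Circled are the 4 called genes, and 2 genes lie outside the axes; *agrp* and *npy* lie in the lower left, with lower values on high-fat diet on both backgrounds.

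The next genes in order of p did not pass the threshold, all with an edgeR adjusted p of 0.176. *Isl1*, a LIM-homeodomain factor of arcuate neurons, had 927, 803, 706, 715 and 775 reads in RC NoDS and 616, 622, 681, 909 and 783 in HFD NoDS. RC → HFD ran from 421 through a median of 568.5 to 741, and HFD → RC held 503, 612, 406, 560 and 561. The switched groups were the low ones, with 9 of 11 switched libraries below all unswitched libraries after scaling, and the interaction was 0.84 (SE 0.19). *Col24a1*, a fibrillar collagen, had 230, 200, 165, 237 and 163 reads in RC NoDS and 161, 76, 188, 151 and 183 in HFD NoDS. The RC → HFD libraries ran from 64 through 98.5 to 136 and HFD → RC held 76, 133, 60, 91 and 109. Except for HFD NoDS 20, every unswitched library was above all switched ones, and the interaction was 1.64 (SE 0.36).

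The retinoic acid-degrading enzyme *cyp26b1* had an interaction of 2.15 (SE 0.52), with means of 159 reads in RC NoDS, 82.8 in RC → HFD, 55.2 in HFD → RC and 131 in HFD NoDS. *Smoc2*, a secreted matricellular protein, had means of 87.6, 74.0, 52.2 and 180.0 reads in the same order and an interaction of 2.00 (SE 0.49). The high values of *smoc2* were in HFD NoDS, where the libraries held 108, 296, 167, 160 and 169 reads. The Wnt antagonist *frzb* (0.95, SE 0.23), the lysosomal protease *ctsl* (0.41, SE 0.10) and *6330403K07Rik* (0.35, SE 0.08) completed this set with *lyz2*. *Lyz2*, lysozyme of myeloid cells, had an interaction of 1.23 (SE 0.30), but its reads can be shared with the near-identical *lyz1*.

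Among genes lower in the unswitched groups with this adjusted p, the neuronal calcium sensor *hpca* had 1283, 1416, 1406, 1361 and 1389 reads in RC NoDS and 1611, 1955, 1289, 1380 and 1596 in HFD NoDS. RC → HFD ran from 1524 through 1721 to 1935 and HFD → RC held 2571, 1717, 1979, 1599 and 1935. RC NoDS was the tight low group, and 7 of 10 unswitched libraries were below all switched ones. Its interaction was −0.70 (SE 0.15), and it overlaps *tmem54* on the other strand.

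*Kif5a*, the neuronal kinesin heavy chain that moves cargo along axons, had means of 25569 reads in RC NoDS, 33369 in RC → HFD, 34136 in HFD → RC and 31305 in HFD NoDS. Its interaction was −0.54 (SE 0.12). *Nsf*, the ATPase that takes apart SNARE complexes after vesicle fusion, had an interaction of −0.37 (SE 0.09), and 8 of 11 switched libraries were above all unswitched ones, in a locus shared with annotated genes on the same strand. The sodium-calcium-potassium exchanger *slc24a2* (−0.55, SE 0.13), the seizure-related *sez6* (−0.46, SE 0.11) and the beta spectrin *spnb1* (−0.54, SE 0.13) had the same sign. The matricellular proteins *sparc* (−0.42, SE 0.09) and *sparcl1* (−0.30, SE 0.07) had negative values as well.

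None of the feeding peptides passed the threshold for the interaction. *Agrp*, which stimulates feeding, had 1289, 1139, 1212, 1442 and 1230 reads in RC NoDS, 426 to 629 (median 536) in RC → HFD, 998, 1276, 623, 544 and 1476 in HFD → RC, and 426, 678, 574, 902 and 616 in HFD NoDS. The RC NoDS libraries were high and the groups on high-fat diet low, HFD → RC spanned 544 to 1476, and the interaction was 0.61 (SE 0.27, edgeR adjusted p = 0.498). *Npy*, expressed in the same neurons, fell after the move from chow to high-fat diet (log2 −1.31, SE 0.15, edgeR adjusted p = 2.36e-05) and was lower in HFD NoDS than in HFD → RC (−0.89, SE 0.16, edgeR adjusted p = 0.0314). Its interaction was 0.42 (SE 0.22, edgeR adjusted p = 0.599). *Trh*, the thyrotropin-releasing hormone precursor, had means of 598, 1282, 1431 and 2042 reads in RC NoDS, RC → HFD, HFD → RC and HFD NoDS, with an interaction of −0.62 (SE 0.22, edgeR adjusted p = 0.364).

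*Rbm3*, a cold-inducible RNA-binding protein, fell on high-fat diet after chow (log2 −0.62, edgeR adjusted p = 0.00433) and had a difference of −0.11 after high-fat diet. The difference between these was the interaction of 0.51 (SE 0.15, edgeR adjusted p = 0.246), which did not pass the threshold, in a gene overlapping *2900002K06Rik*. Of the other genes the study named, *atxn7l2* (0.43), *sbno2* (0.39), *c4b* (0.42), *serpina3n* (0.36) and *cartpt* (0.31) had positive values and edgeR adjusted p of 0.352 to 0.665. *C4b* and *serpina3n* have close paralogs that can share reads. *Pomc* had −0.05 (SE 0.24), and *hcrt*, the orexin precursor of the lateral hypothalamus, had −0.65 (SE 0.73) on the log2 scale but 77.1 reads on the linear scale, so its sign depended on the scale.

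Meningeal and fibroblast markers had the highest median of the 54 lists described. All 25 of 25 tested members were positive, with a median of 1.85 beside −0.00 over all genes. Of these, 21 had an unadjusted p under 0.05 (4.02% higher over all genes). EdgeR called 0, while *aldh1a2* and *islr* were each called in 3 of 29 alternative fits. The median was 1.54 to 2.17 when a library was left out. *Aldh1a2*, a retinoic acid-synthesising enzyme of the meninges, had 98, 320, 441, 167 and 531 reads in RC NoDS, 88, 339, 167, 384 and 394 in HFD NoDS, 21 to 160 (median 127.5) in RC → HFD and 237, 93, 31, 37 and 149 in HFD → RC. The unswitched groups held the higher libraries but overlapped the switched ones, and the interaction was 2.73 (SE 0.69, edgeR adjusted p = 0.196). *Ptgds*, the prostaglandin D synthase, had 2512 to 62534 reads over the libraries and an interaction of 2.34 (SE 0.68, edgeR adjusted p = 0.246). *Mgp*, *islr* and the serum-protease inhibitor *serping1* had 2.24, 1.84 and 1.68.

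The summed level of these markers, in reads scaled to a common library size (CPM), was 920.3, 2289.5, 3243, 1177.5 and 3958 in RC NoDS and 773, 5063, 1978, 2965 and 2463 in HFD NoDS. The RC → HFD libraries had a lowest, median and highest of 343, 1107 and 2009, and the HFD → RC libraries held 2012, 1385.5, 438, 571 and 1793. The unswitched groups spanned a wide range and overlapped the switched groups: HFD NoDS 19 and 21 and RC NoDS 1 and 5 were below the highest switched libraries. *Ptgds* made up 72.6% of the sum, and 0 of the 28 markers averaged under 5 reads. The interaction of the log2 sum was 2.10 (1.78 to 2.48 with a library left out), it moved with the contrast, and its part in the other results was not tested.

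Of 59 tested collagens, laminins and other basement membrane genes, 17 were higher and 6 lower at an unadjusted p under 0.05 (4.02% and 4.82% over all genes), the median was 0.32, and *col18a1* was called. *Fn1*, fibronectin, had 1.26 (SE 0.32) and *col23a1*, a transmembrane collagen, had 0.84 (SE 0.21), both with an edgeR adjusted p of 0.196, while *sparc* was among the 6 lower genes. The sulfate transporter *slc13a4* of the choroid plexus list had 2.98 (SE 0.82), but only 2 of 10 tested members of that list were at an unadjusted p under 0.05, and its median was 0.18. The other of these 2 was *igf2*, which belongs to the meningeal list as well. The choroid plexus sum overlapped between groups, at 310 to 474 in HFD → RC and 354 to 523 in RC NoDS, and *steap1*, *kcne2*, *tmem72* and *slc4a5* averaged under 5 reads.

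**Figure D3:**
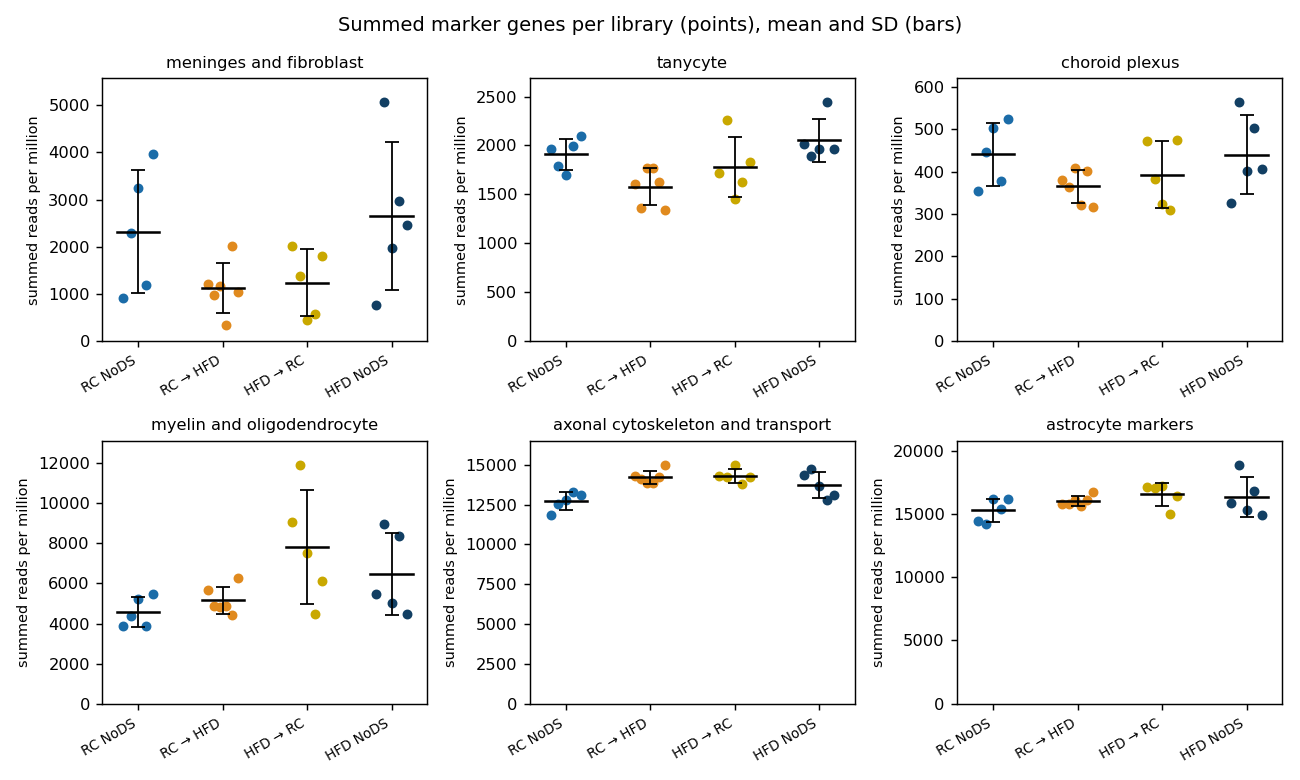
Summed CPM of 6 marker lists in each library (points), with the mean and SD (bars), by diet group. Meningeal markers lie at 773 to 5063 in HFD NoDS and at 343 to 2009 in RC → HFD, and the groups overlap.

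Tanycyte markers also had a positive median. Of 26 tested, 11 were higher and 1 lower at an unadjusted p under 0.05 (4.02% and 4.82% over all genes). EdgeR called 0, while *frzb* was called in 7 and *crym* in 4 of 29 alternative fits. The median was 0.47 (0.39 to 0.54 with a library left out). *Col23a1* had 4447, 3889, 3429, 5019 and 5284 reads in RC NoDS, 2168 to 4247 (median 3427) in RC → HFD, 3103, 4333, 2508, 3005 and 3663 in HFD → RC, and 4400, 3536, 4871, 5336 and 4663 in HFD NoDS. *Crym*, which binds thyroid hormone, had 0.93 (SE 0.25), the deiodinase *dio2* had 0.91 and *vim* 0.51. Over the whole list 20 members were positive and 6 negative, the lowest at −0.85. Unswitched levels were the higher ones for *col23a1*, with 6 of 10 libraries above all switched ones after TMM scaling. By group, the summed tanycyte markers (mean ± SD, 5 or 6 libraries) were RC NoDS 1909 ± 162 CPM, RC → HFD 1579 ± 192, HFD → RC 1776 ± 306 and HFD NoDS 2055 ± 221, with *prdx6* as 21.5% of the sum and 0 markers under 5 reads. Their part in the results was not tested.

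Reactive gliosis genes had a median of 0.37 (0.24 without HFD NoDS 23), with 7 of 26 higher and 1 lower at an unadjusted p under 0.05 (4.02% and 4.82% over all genes), and some of them, such as *vim* and *serping1*, belong to the tanycyte or meningeal lists as well. The microglial list had 0 of 26 at an unadjusted p under 0.05 in edgeR and a median of 0.08. *Col18a1* was the single list member called at 0.15 by that tool.

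Axonal, synaptic, receptor and channel lists had negative medians. Of 26 tested genes of the axonal cytoskeleton and transport, 12 were lower and 0 higher at an unadjusted p under 0.05, where all genes had 4.82% lower and 4.02% higher, with a median of −0.20 (−0.23 to −0.16 with a library left out). *Nefl*, the light neurofilament, had 2011, 2173, 2044, 1648 and 1711 reads in RC NoDS, 2047 to 2916 (median 2367) in RC → HFD, 2113, 1969, 2869, 2298 and 2453 in HFD → RC, and 2050, 1780, 2474, 1823 and 1758 in HFD NoDS. The switched groups were the higher ones but overlapped with the unswitched, and the interaction was −0.59 (SE 0.15, edgeR adjusted p = 0.196). *Ina* and *nefh*, other neurofilament subunits, had −0.40 and −0.49. *Kif5a* was the most abundant member, with 13.8% of the summed reads.

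Of 31 synaptic vesicle genes, 14 were lower and 0 higher at an unadjusted p under 0.05 (4.82% and 4.02% over all genes), with a median of −0.13 (−0.22 without HFD NoDS 20). *Nsf*, *syn2* (−0.31), *syt2* (−0.73) and *syn1* (−0.29) were the members with the smallest p. Among 37 glutamate and GABA receptor genes, 7 were lower and 2 higher, with a median of −0.18, and without RC NoDS 1 the lower count was 4. The metabotropic receptor *grm3* had 246, 201, 271, 179 and 156 reads in RC NoDS, 186 to 310 (median 281.5) in RC → HFD, 337, 283, 319, 349 and 352 in HFD → RC, and 174, 131, 250, 259 and 212 in HFD NoDS. HFD → RC was the high group, above every other library except some of RC → HFD, and the interaction was −1.04 (SE 0.26, edgeR adjusted p = 0.176). The GABA receptor subunit *gabre* had 0.61 (SE 0.17). Of 44 potassium channel genes, 10 were lower and 1 higher, with a median of −0.21, and the lower count was 5 without HFD → RC 15 and 6 without HFD NoDS 23.

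Of 35 tested myelin and oligodendrocyte genes, 0 were called by edgeR and 9 had a lower and 0 a higher interaction at an unadjusted p under 0.05 (all genes 4.82% and 4.02%), with a median of −0.44 (−0.27 without HFD → RC 14, −0.60 without HFD → RC 16). *Mobp*, a myelin structural protein, had 3991, 4785, 6525, 4537 and 5760 reads in RC NoDS, 4910 to 8030 (median 6128) in RC → HFD, 15120, 17755, 10411, 5569 and 8480 in HFD → RC, and 6658, 11421, 5991, 12389 and 5120 in HFD NoDS. The high values lay in some libraries of both groups with earlier high-fat diet, and the interaction was −0.81 (SE 0.33, edgeR adjusted p = 0.445). The summed myelin markers were 3854, 4357, 5229, 3895 and 5479 CPM in RC NoDS, 4433 to 6283 (median 4886) in RC → HFD, 9062, 11911, 7502, 4498 and 6122 in HFD → RC, and 5489.7, 8949, 5018, 8373 and 4486 in HFD NoDS, with *mbp* at 32.0%. The mean of unswitched HFD NoDS (6463) was above that of switched RC → HFD (5166), and the part of these sums in the results was not tested. Without HFD → RC 14 the lower count was 3, without RC NoDS 1, RC → HFD 12 or HFD NoDS 21 it was 4, and without RC NoDS 5 or HFD NoDS 19 or 24 it was 5. Without HFD NoDS 23, HFD NoDS 20 or HFD → RC 16 it was 15, 19 or 20.

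Of 25 astrocyte markers, 0 were called by edgeR and 10 were lower and 0 higher at an unadjusted p under 0.05 (4.82% and 4.02% over all genes), with a median of −0.19. *Ndrg2* had −0.28 (SE 0.09, edgeR adjusted p = 0.275), and the glutamate transporter *slc1a2* and GABA transporter *slc6a11* had −0.24 each. Over the whole list 17 members were negative and 8 positive, up to 0.20. The most abundant member, *apoe* with 17.7% of the summed reads, was positive in the edgeR fit. The lower count was 4 without HFD → RC 15, HFD NoDS 21 or HFD NoDS 24, 5 without RC NoDS 1, RC NoDS 2 or RC → HFD 12, and 6 without RC NoDS 5, HFD → RC 13 or HFD NoDS 19. The summed astrocyte markers (mean ± SD, 5 or 6 libraries) were RC NoDS 15269 ± 924 CPM, RC → HFD 16017 ± 397, HFD → RC 16552 ± 922 and HFD NoDS 16347 ± 1571. The groups overlapped, the interaction of the log2 sum was −0.09 (−0.145 without HFD NoDS 20, −0.0605 without HFD NoDS 24), and their part in the results was not tested.

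Hormone signalling genes had small medians, and their counts stand beside 4.02% higher and 4.82% lower over all genes. Of 26 leptin and JAK-STAT genes, 4 were higher and 2 lower at an unadjusted p under 0.05, with a median of 0.07. The leptin receptor *lepr* had 126, 192, 160, 250 and 143 reads in RC NoDS, 78 to 154 (median 101.5) in RC → HFD, 105, 97, 51, 157 and 119 in HFD → RC, and 100, 122, 214, 164 and 209 in HFD NoDS. Its groups overlapped, with 6 of 10 unswitched libraries above every switched library, and the interaction was 1.20 (SE 0.38, edgeR adjusted p = 0.28). *Stat3*, which carries the leptin signal, had 0.28, and the phosphatase *ptpn2* 0.85. Insulin and PI3K genes had 4 of 36 higher and 1 lower, with a median of 0.07. Among the higher ones were *igf2* and *igfbp2*, which belong to the meningeal list as well. Feeding hormone and peptide receptors had 5 of 37 higher and 2 lower, with a median of −0.01, and the higher count was 3 without HFD → RC 15 or HFD NoDS 23. Thyroid hormone genes had 3 of 17 higher, *crym* and *dio2* among them, with a median of −0.06.

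Among the peptide lists, again beside 4.02% higher and 4.82% lower over all genes, orexigenic peptides had 2 of 10 higher and 1 lower with a median of 0.06, anorexigenic and stress peptides 3 of 11 lower with 0.01, and other hypothalamic peptides 1 of 11 lower with 0.36. *Bdnf*, a growth factor that restrains feeding, had −0.68 (SE 0.22). Markers of the arcuate and ventromedial nuclei had 5 of 21 higher and 3 lower, with a median of 0.24, *tbx3* at 0.71 and *nr5a1* of the ventromedial nucleus at −0.85. The higher count was 3 without RC NoDS 5, RC NoDS 6, RC → HFD 8, HFD → RC 15 or HFD NoDS 23, and 8 without HFD → RC 14. The lower count was 0 without HFD → RC 15, 1 without RC NoDS 5, RC NoDS 6, RC → HFD 12, HFD NoDS 23 or HFD NoDS 24, and 5 without RC NoDS 3. Prohormone processing had 2 of 21 lower (0.01), and dopamine neuron genes 2 of 11 higher (0.17).

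Among markers of neighbouring regions, beside 4.02% higher and 4.82% lower over all genes, 1 of 9 paraventricular and supraoptic genes was higher and 2 lower at an unadjusted p under 0.05 (median 0.11), and 2 of 19 lateral hypothalamic genes were higher and 3 lower (0.12). Of 16 thalamic genes, 3 were lower (−0.05), and of 16 cortical, hippocampal, striatal and amygdala genes, 1 was higher and 3 lower (−0.15). *Tbr1*, *neurod6*, *neurod2* and *slc17a7* averaged under 5 reads. The blood list had 1 of 7 higher and 1 lower with a median of 0.75. The higher count was 4 and the median 1.18 without HFD → RC 13, the median was 0.48 without HFD → RC 16, and the count was 2 without HFD NoDS 19 and 0 without HFD NoDS 20. *Hbb-b2*, whose reads can be shared with *hbb-b1*, had 1.30 (SE 0.51). The pituitary list had 1 of 10 higher and 2 lower, with a median of 0.07. Its *gh* was at 2003 reads in HFD → RC 13, 480 in RC → HFD 12, 184 in RC NoDS 6 and 37 in RC → HFD 10, and at 0 to 4 in the other libraries. *Prl* reached 841 reads in RC → HFD 12.

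In the vascular, immune, activity and stress lists, counts at an unadjusted p under 0.05 were 0 to 3 in either direction, beside 4.02% higher and 4.82% lower over all genes. Endothelial genes had 2 of 31 higher (median −0.07), pericyte and smooth muscle genes 2 of 15 higher (0.10), ependymal genes 1 of 19 higher and 1 lower (−0.21) and oligodendrocyte precursor genes 2 of 15 lower (−0.10). The pericyte count was 0 and the median −0.08 without HFD NoDS 20, and the count was 1 without RC NoDS 6. Interferon-stimulated genes had 3 of 31 higher and 1 lower (0.33). That higher count was 0 without RC NoDS 6, RC → HFD 10, HFD → RC 15, HFD NoDS 23 or HFD NoDS 24, and 1 without RC → HFD 8 or 12. It was 5 without RC NoDS 2 or HFD → RC 14, 6 without HFD → RC 17 or HFD NoDS 19, and 7 without RC → HFD 11, and the median was 0.18 without RC NoDS 6. The NF-kB and toll-like receptor genes had 1 of 29 higher (0.17). Immediate early genes, which follow neuronal activity, had 3 of 34 higher and 3 lower (0.17), with *arc* at −0.82. The higher count was 0 without HFD NoDS 21 and 5 without HFD → RC 17. The circadian clock had 2 of 22 lower (−0.02), with *cry1* at −0.46. The wake and arousal list had 1 of 13 higher (0.01), which was the prostaglandin synthase *ptgds* and not a receptor, the cold-inducible pair *rbm3* and *cirbp* 1 of 2 higher (0.33), and glucocorticoid targets 2 of 28 higher (0.16).

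Core metabolic and protein-handling genes gave small medians, and all genes had 4.02% higher and 4.82% lower. Cytosolic ribosomal protein genes had 11 of 83 higher and 0 lower with a median of 0.14, and *rpl30* had 0.32. That count was 22 without RC NoDS 2, 21 without RC NoDS 3 or HFD → RC 14, 18 without HFD NoDS 19, 17 without HFD NoDS 21, and 26 by library size alone. Cholesterol and fatty acid synthesis genes had 6 of 40 lower (−0.09), with *fasn* at −0.27, and 3 lower without RC NoDS 5, RC NoDS 6 or RC → HFD 7. Glycolysis had 1 of 29 lower (−0.06), the TCA cycle 2 of 25 lower (−0.05), fatty acid oxidation 1 higher and 3 lower of 44 (−0.01), lipoprotein handling 1 of 26 higher (−0.04) and adipocyte and circulating lipid response genes 1 of 15 lower (0.06). Endoplasmic reticulum stress had 2 of 34 higher (0.06), oxidative stress response 3 of 28 higher (−0.01), the SAGA complex 2 of 23 higher (−0.01) and mitochondrial ribosomal proteins 1 of 74 higher (0.00495). Heat shock chaperones (32 tested), the proteasome (31), oxidative phosphorylation (75) and proliferation genes (10) had 0 at an unadjusted p under 0.05 in edgeR, with medians of −0.04, 0.07, 0.01 and 0.30.

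**Figure D4:**
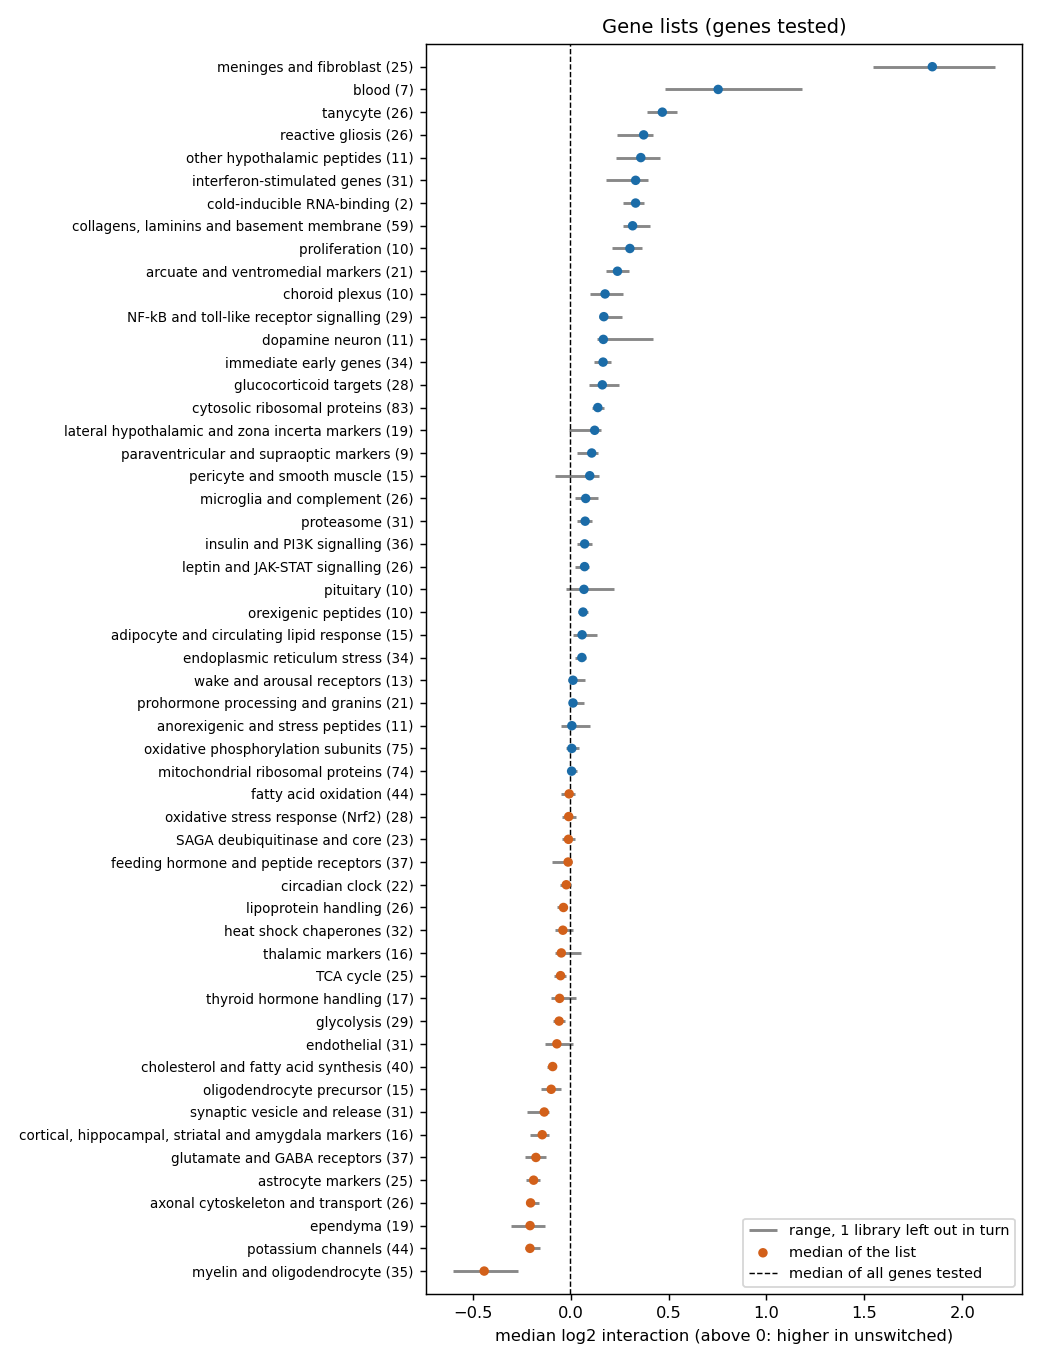
Median log2 interaction of each of the 54 gene lists (points), with the range when a library is left out in turn (bars) and the median of all genes tested as the dashed line. Meningeal markers lie highest at 1.85 and myelin markers lowest at −0.44.

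The genes on either side differed in level. The 513 higher genes had a median of 355 mean reads and a median transcript length of 2770.5 bases, the 616 lower genes 1292.5 reads and 4138.5 bases, and all genes 567 reads and 3178 bases. Among the 523 genes averaging at least 5000 reads, 20 were higher and 81 lower, while among the 2725 genes averaging 50 to 200 reads 162 were higher and 66 lower. The TMM factor averaged 1.01 in RC NoDS, 0.994 in RC → HFD, 0.995 in HFD → RC and 1.00 in HFD NoDS (permutation test of the interaction over 21 libraries, p = 0.0213, adjusted p = 0.0852 over 4 measures). The share of low-count genes at 0 was 3.22%, 11.9%, 16.5% and 16.3% in the same order (permutation p = 0.297), and with it as a covariate edgeR called 33 genes, 21 higher and 12 lower. The part of these measures in the result was not tested.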

How the data were processed

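RNA was measured in 21 libraries of pooled ventral hypothalamic punches. The counts are whole reads per gene that the authors deposited: reads were aligned to mm9 with STAR 2.5.1b, runs were merged with Picard 2.7.1, ribosomal and mitochondrial reads were left out and all libraries were randomly re-sampled to a common depth. The kit kept strand, but whether the counting used it is not given in the sources used here.

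Genes averaging at least 50 reads were fitted with edgeR 4.0.16 (R 4.3.3; TMM scaling, quasi-likelihood test, a mean per group) and adjusted by Benjamini-Hochberg over 12768 genes, with the study's threshold of 0.15. The fit was tested on simulated data. Alternatives were DESeq2 1.42.0, limma 3.58.1 (voom, and trend on log2 counts + 1), other filters (5 reads, none), library size without TMM, robust dispersion, the share of zero counts as a covariate, and each library left out. DESeq2 adjusted over the genes its own filter on mean counts kept, and, chosen after seeing the data, over all genes. Library measures had permutation tests of 100000 resamples; Python 3.11.15, numpy 2.4.6, pandas 2.3.3 and scipy 1.17.1 were used.

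Named genes were those called, the 10 with the smallest p in each direction, those the study named that were tested, and up to 4 members with the smallest p, or the most abundant, of each list. The study's *ikzf3*, *tk1* and *cldn2*, at 5.19, 8.86 and 9.67 mean reads, were below the 50-read filter. Members and the 54 lists were chosen with earlier results of these data known, and the list members screened library by library were chosen with their own results known. The 45 pairs of libraries within groups held 0 identical pairs. Coordinates come from the NCBIM37 GENCODE annotation.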

Additional observations from a re-analysis of the deposited data

Results flagged for a closer look

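The interaction passed the threshold of 0.15 for 4 genes, at an edgeR adjusted p of 0.145 each: *slc12a7* (0.95 on the log2 scale), *col18a1* (1.08), *plcxd2* (−0.66) and *tppp* (−0.51). At an adjusted p under 0.05, edgeR called 0.

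Single libraries stood far from the rest of their group in 18 of 328 groups of values examined (5.49%). Chance gives about 1 in 20. The genes screened were chosen after the data were seen. In RC → HFD, *plcxd2* was at 2421 reads in library 8, *cyp26b1* at 22 in library 10, and *sparc* at 47487 and *trh* at 2047 in library 12. In RC NoDS, *spnb1* was at 1688 and *ina* at 2997 reads in library 1, and *vim* at 2207 in library 6. *Nefh* was at 1566 reads in HFD → RC 17 and *gabre* at 2326 in HFD NoDS 23. The pituitary hormone *gh* stood apart at 184 reads in RC NoDS 6, 480 in RC → HFD 12 and 2003 in HFD → RC 13. *Prl* did so at 154 reads in RC NoDS 2, 841 in RC → HFD 12, 258 in HFD → RC 13 and 10 in HFD NoDS 21. Summed tanycyte markers were highest in HFD NoDS 23 at 2442 CPM, and summed pituitary markers lowest in RC → HFD 8 at 840.06.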

How the results depend on the processing

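The 4 called genes had the same direction in all 29 alternatives, and were called in 14 (*slc12a7*), 15 (*col18a1*), 12 (*plcxd2*) and 13 (*tppp*) of them. The number called was 116 (56 higher, 60 lower) with DESeq2, 15 (7, 8) with limma-voom, 2 (2, 0) with limma-trend, 0 (0, 0) with a filter of 5 reads, 5 without a filter, 2 (2, 0) without TMM, 5 with robust dispersion, 33 (21, 12) with the zero share as covariate and 0 (0, 0) at 0.05, where edgeR had 1129 at an unadjusted p under 0.05. Leaving out a library gave 0 to 124 (0 to 60 higher, 0 to 86 lower). Current diet had 12 genes with DESeq2. Earlier diet had 3 with limma-voom and 32 with DESeq2. As alternatives chosen after seeing the data, DESeq2 adjusted over all genes gave 116 for the interaction, 12 for current diet and 23 for earlier diet. Earlier diet had 35 without a filter, 5 with robust dispersion, 3 with limma-trend and 2 with the covariate. RC → HFD against RC NoDS had 96 with DESeq2 (886 genes adjusted) and 15 over all genes. HFD NoDS against HFD → RC had 44 with DESeq2, 44 over all genes, 4 with a filter of 5 reads, 5 without a filter, 2 with robust dispersion and 15 with the covariate. Genes without overlap numbered 0 to 2 with a library left out.

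Over 31 genes (called, smallest p or named by the study), 712 of 899 values kept direction and side of the threshold. Another 62 no longer passed it, 116 newly passed it and 9, all of *pomc*, changed sign. Over 201 further list members, 5741 of 5829 values kept both, 80 newly passed the threshold and 8 changed sign, in *prl*, *apoe* and *syt11*. *Pomc* was 0.00405 with limma-trend, 0.0189 with the covariate and −0.17 to 0.10 with a library left out. *Prl*, at −6.40 in edgeR with most libraries at 0 or 1 read, was 0.0935 with limma-voom and −9.10 to 2.29 with a library left out, *apoe* −0.0153 to 0.13, and *syt11* 0.0131 with limma-trend, 0.0126 without TMM and −0.0497 to 0.00087 with a library left out. *Hcrt* had 77.1 reads on the linear scale. The median of all genes was 0.0295 without TMM, and of prohormone processing 0.0449. With a library left out, medians were −0.10 to 0.00755 for feeding receptors, −0.10 to 0.0269 for thyroid hormone handling, 0.14 to 0.26 for NF-kB, −0.22 to −0.11 for synaptic vesicles, −0.00921 to 0.15 for lateral hypothalamus, −0.00018 to 0.0701 for prohormone processing, 0.14 to 0.42 for dopamine neurons and 0.21 to 0.36 for proliferation. Other medians that took both signs were −0.00687 to 0.00318 for all genes, −0.0493 to 0.10 for anorexigenic peptides, −0.0778 to 0.0527 for thalamic markers, −0.13 to 0.00946 for endothelium, −0.0785 to 0.14 for pericytes, −0.0247 to 0.22 for pituitary and −0.0776 to 0.0116 for heat shock, then −0.0121 to 0.0711 for wake receptors, −0.0455 to 0.0204 for SAGA, −0.0491 to 0.0206 for fatty acid oxidation, −0.0457 to 0.0297 for oxidative stress, −0.016 to 0.0314 for mitochondrial ribosomes and −0.0227 to 0.0435 for oxidative phosphorylation. Further medians kept their sign with a library left out but moved by over 1.5 times. Leptin signalling had 0.024 to 0.094, insulin signalling 0.033 to 0.11, paraventricular markers 0.03 to 0.14 and microglia 0.0206 to 0.14. Orexigenic peptides had 0.0383 to 0.0879, other peptides 0.23 to 0.45, interferon genes 0.18 to 0.40 and clock genes −0.0564 to −0.0000413. ER stress had 0.0236 to 0.0782, glucocorticoid targets 0.0948 to 0.25, glycolysis −0.0902 to −0.0274 and the TCA cycle −0.086 to −0.0232. Lipoprotein handling had −0.0693 to −0.0187, adipocyte genes 0.0143 to 0.13, the proteasome 0.0311 to 0.11 and ependyma −0.30 to −0.13. Oligodendrocyte precursors had −0.15 to −0.0495, choroid plexus 0.10 to 0.27 and blood 0.48 to 1.18. Myelin had −0.60 to −0.27 and reactive gliosis 0.24 to 0.42. The clock median changed sign to 0.00938 without TMM, and the adipocyte median changed sign to −0.00282 with the covariate. Of 53 list counts of 1 to 4 genes at an unadjusted p under 0.05, 37 moved by over 1.5 times when some library was left out. For each of these the cause was not tested.

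No paired analysis was possible because the groups share no replicate numbers.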
